A study of Canis lupus familiaris with 7 samples.

Results

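Regulators of G protein signaling (RGS proteins) were examined across 7 canine primary osteosarcomas, a bone tumor, of which 4 had lost DLG2 and 3 had not. Members were the array probes whose gene name in the files was 1 of 10 listed RGS genes. They came to 15 probes for 9 of these genes, out of 43603 probes on the array. No probe carried the name RGS16, which was not analysed here. All 15 probes passed the filter on dim signal, which asked for a spot well above background on at least 3 of the 7 arrays and kept 32309 probes.

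Each tumor was hybridized alone to a 1-color Agilent Canine V2 expression array, and values are normalized log2 intensities, so a difference of 1 is a change in normalized intensity by a factor of 2. The DLG2 deleted tumors came from dogs of 8, 9, 6 and 7 years, numbered 1 to 4. These were a German Shepherd/Collie/X mixed breed, a Rottweiler X, a Greyhound and a Great Pyrenees, with the sex labels MC, FS, MC and FS. The DLG2 wild type tumors 1 to 3 came from a Boxer of 12 years, a Labrador Retriever/X mixed breed of 10 years and a Bull Mastiff of 8 years, with the sex labels FS, FS and MC. The study set DLG2 status by copy number arrays on the same tumors, and DLG2 encodes a scaffold that holds signaling proteins together at the membrane. RNA was taken from whole tumor tissue, so a change in the number of cells of a type and a change in RNA per cell cannot be told apart. Each array is a different dog, and breed, age and sex vary with it.

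Between 30409 and 34692 spots per array were well above background and 0 were saturated. The single DLG2 probe read 10.33, 11.42, 10.47 and 10.81 in deleted tumors 1 to 4 and 10.88, 12.02 and 11.73 in wild type tumors 1 to 3 (difference -0.79, SE 0.36, limma adjusted p = 0.706). It was thus measured in every deleted tumor, and whether the deleted stretch holds this probe was not settled here. The arrays lay on 5 slides. Sessions 1 and 2 here are only a split by the clock time at which the array images were read by software. Session 1 is before noon and session 2 is later, whatever the date, so they are not known batches of RNA or labelling. Wild type tumor 2 shared a slide with deleted tumors 2 and 3, and session 1 held these 3 and deleted tumor 4. Wild type tumors 1 and 2 had unusually like arrays, with a median absolute difference of 0.14 over all kept probes against 0.23 to 0.32 in the other 20 pairs of tumors. Of the osteoblast markers 6 of 11 had a kept probe, and ALPL, the bone alkaline phosphatase, lay between 12.53 and 16.55.

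Receptors coupled to G proteins act by loading a G protein alpha subunit with GTP, and the signal lasts until that GTP is hydrolyzed. RGS proteins bind the loaded alpha subunit through their shared RGS domain, speed up the hydrolysis and so shorten the signal. They fall into subfamilies. The R4 subfamily of small proteins holds RGS1, RGS2, RGS3, RGS4, RGS5, RGS16 and RGS18, the R7 subfamily with its obligate partner GNB5 holds RGS9, and the R12 subfamily holds RGS10 and RGS14.

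Over the family, 0 of 15 probes passed the threshold for deleted against wild type tumors (unadjusted p below 0.05 with a Benjamini-Hochberg adjusted p below 0.1, limma over all kept probes). Over all 32309 kept probes 0 were called, or 0.0%, and the smallest adjusted p was 0.103. Among the RGS probes 6 were higher and 9 lower in deleted tumors, with adjusted p between 0.559 and 0.990. One probe, that of RGS9, was lower at an unadjusted p below 0.05 and 0 were higher, where 4.18% of all kept probes were lower and 3.16% higher at that level. RGS9 was likewise the single RGS probe whose groups did not overlap, with every deleted tumor below every wild type tumor, as in 4.24% of all kept probes. No RGS probe had all deleted tumors above all wild type tumors, against 3.93% of all kept probes. The count of 1 in 15 probes is thus close to the share on the whole array. The median difference of the RGS probes was -0.07, beside 0.00 over all kept probes. With 1 probe per gene, that with the highest mean, 3 genes were higher and 6 lower, and the median difference was -0.24. 

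**Figure D1:**
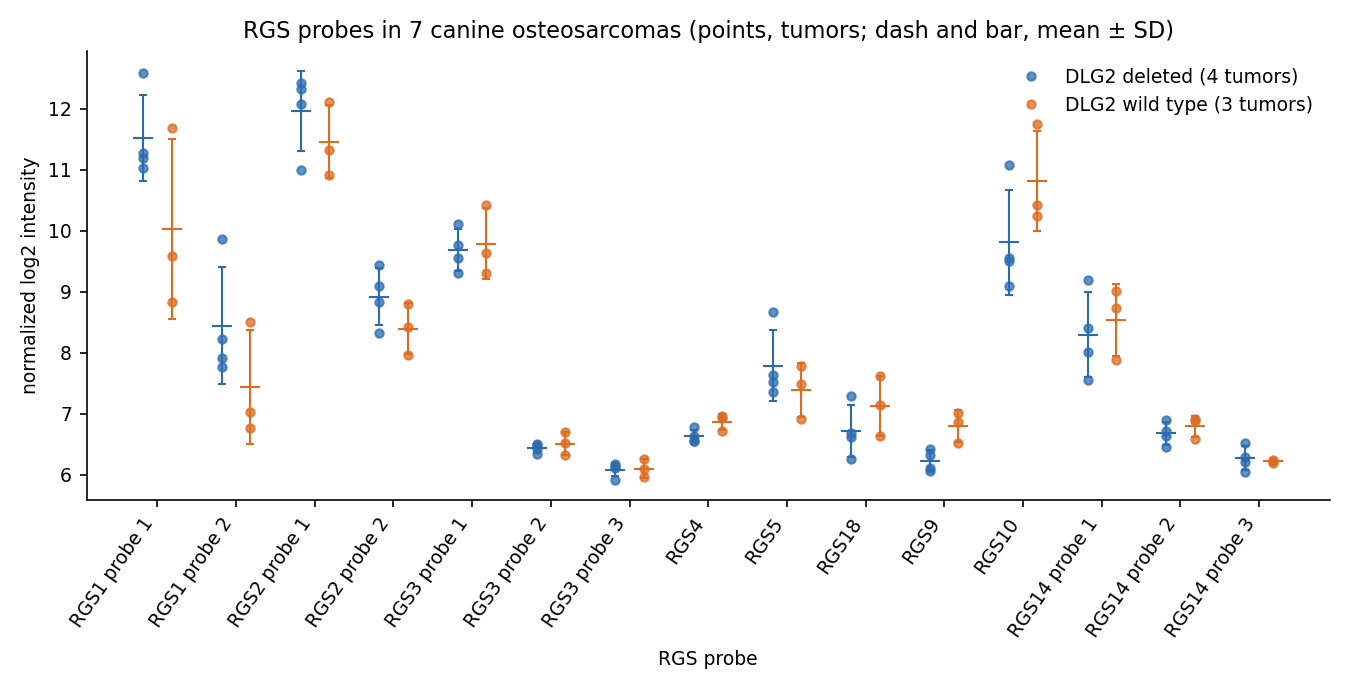
Normalized log2 intensity (vertical axis) of each RGS probe (horizontal axis) in the 4 DLG2 deleted tumors (blue) and 3 wild type tumors (orange), with a point per tumor and the mean with its SD. The groups overlap at every probe but that of RGS9, where the deleted tumors lie between 6.06 and 6.43 and the wild type tumors between 6.52 and 7.02. Levels of different probes are not comparable.

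RGS9, the R7 member, is best known for ending the light response in photoreceptors and for damping dopamine signaling in the striatum. It is the member that the study itself picked on these tumors, so its direction here is not independent evidence. Its single probe (A_11_P081231, canFam2 chr9:17939136-17940862, minus strand) spans 1727 bases of genome with 60 bases of sequence, so it crosses an intron. It is shown whole, as the probe with the smallest p of the family.
RGS9 probe: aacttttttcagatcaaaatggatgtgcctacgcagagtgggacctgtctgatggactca

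RGS9 read 6.43, 6.33, 6.11 and 6.06 in deleted tumors 1 to 4. It read 6.86, 7.02 and 6.52 in wild type tumors 1 to 3. The gap between the highest deleted tumor and the lowest wild type tumor was small beside the spread within either group. The mean was 6.23 ± 0.18 (SD, n = 4) in deleted tumors against 6.80 ± 0.26 (SD, n = 3), which puts the difference at -0.57 (SE 0.16, 95% interval -0.95 to -0.18). That is 1.48-fold lower in deleted tumors, with a limma p of 0.0107 and an adjusted p of 0.559 over all kept probes. A two-sided exact permutation test, with 35 ways to divide the tumors, gave p = 0.0571, and no smaller value can arise with 4 against 3.

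The RGS9 spot was dim. The software that read the array images marked it well above background on 3 of the 4 deleted arrays and on all 3 wild type arrays. Before any normalization its mean intensity was 51.4, 46.1, 36.5 and 29.8 units in deleted tumors 1 to 4 over a local background of 18 to 21 units. In wild type tumors 1 to 3 it was 92.0, 100.4 and 75.1 units over 19 to 20 units. Less that background, the mean was 21.3 ± 10.0 units (SD, n = 4) in deleted and 69.6 ± 12.7 units (SD, n = 3) in wild type tumors, a ratio of 3.27. That ratio also holds differences in brightness between whole arrays. It was 1.59 at the brightest RGS3 probe, whose normalized difference was -0.11, and ran from 0.44 to 2.84 over the other RGS probes. The size of the RGS9 difference after normalization hung on the background correction and the scaling, while its sign did not. With that software's own background-subtracted signal it was -1.71 after quantile normalization and -1.88 after scaling to the 75th percentile, with limma adjusted p of 0.484 and 0.510. With an offset of 16 units in place of 50 it was -0.91. Scaled by the 75th percentile after the same background correction it was -0.40, beside a median over all kept probes of 0.11, and there the groups overlapped, with deleted tumors 1 and 2 at 6.41 and 6.56 and wild type tumor 3 at 6.29. Over all alternatives the RGS9 adjusted p ran from 0.173 to 0.9999.

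**Figure D2:**
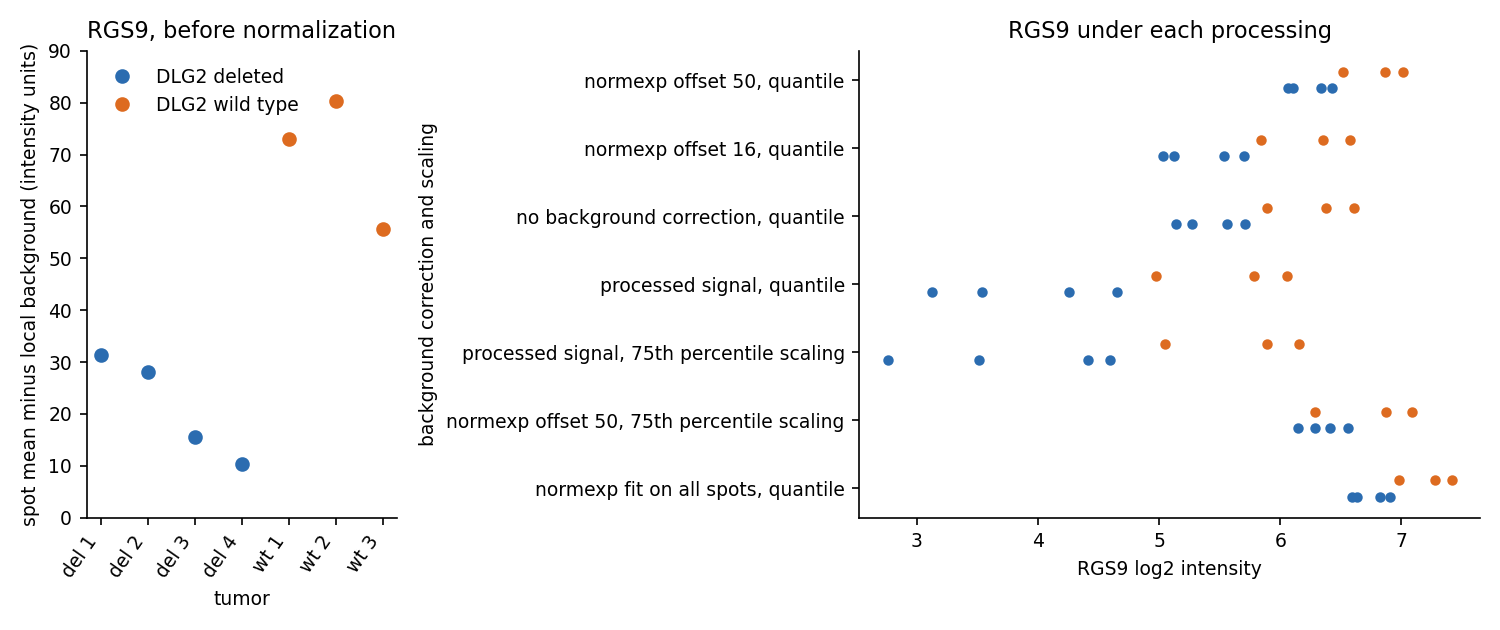
Left, RGS9 spot intensity less its local background (vertical axis, intensity units) by tumor, with deleted tumors between 10.3 and 31.4 and wild type tumors between 55.6 and 80.4 units. Right, RGS9 log2 intensity (horizontal axis) of the same 4 deleted (blue) and 3 wild type (orange) tumors under each background correction and scaling (vertical axis). The groups stay apart in every line but that of normexp with 75th percentile scaling.

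Within session 1 RGS9 was lower in deleted tumors by a difference of -0.85, and within session 2 by -0.26. Within the shared slide the difference was -0.80. Age differs between the groups, with 6 to 9 years in deleted and 8 to 12 years in wild type tumors, and with age as a covariate the RGS9 difference was -0.33 (limma adjusted p = 0.849). Leaving out each tumor in turn gave differences from -0.71 to -0.46.

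None of the partners and relatives of RGS9 that had a kept probe passed the threshold. RGS9BP, GPR158 and RGS11 had no probe under these names and were not read here. The genes below were singled out for their place in the R7 complex, with their values already seen. GNB5, the beta subunit that stabilizes R7 proteins, differed by 0.20 (SE 0.16). RGS7BP, which anchors R7 proteins at the membrane, differed by -0.12 (SE 0.17), and GPR179, an orphan receptor that recruits RGS7 and RGS11, by 0.17 (SE 0.11). The other R7 genes with a kept probe, named through the probe descriptions, were RGS6, at a difference of -0.04 (SE 0.14), and RGS7, at -0.00 (SE 0.26). Adjusted p of these 5 genes lay between 0.824 and 0.999 (limma).

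**Figure D3:**
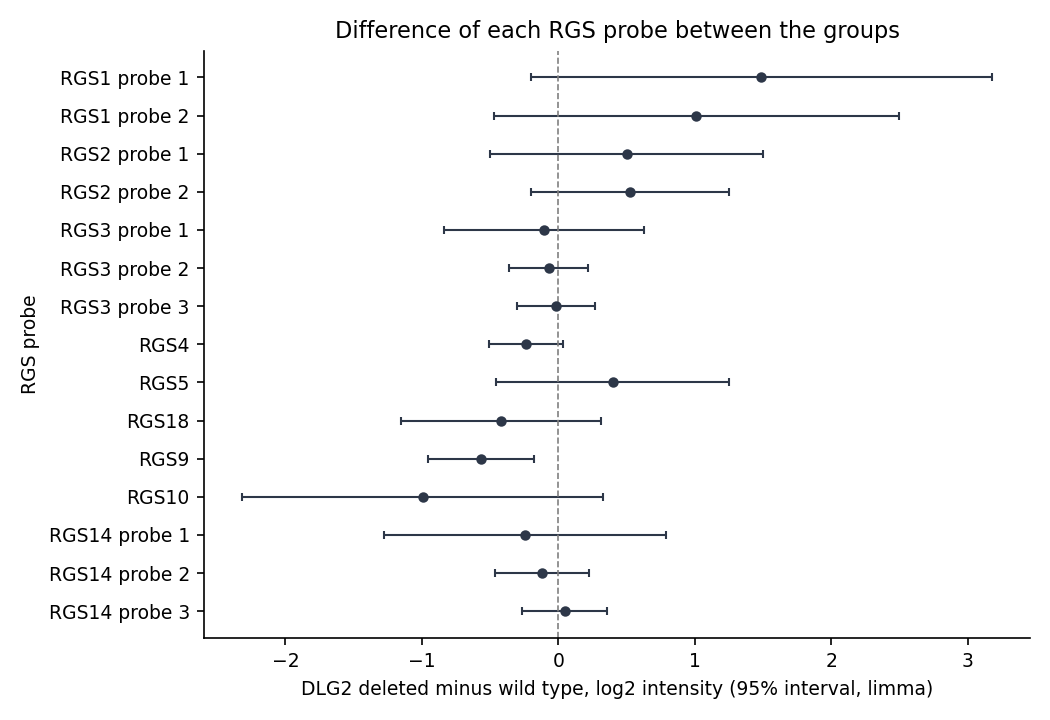
Difference in log2 intensity, deleted minus wild type (horizontal axis), of each RGS probe (vertical axis), with the 95% interval from limma before adjustment. The interval of RGS9 (-0.95 to -0.18) lies wholly below 0 and those of the other 14 probes span 0. Those of RGS1 and RGS10 are the widest.

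RGS1, an R4 member that is abundant in activated B and T cells, varied most. Its brighter probe (A_11_P0000014488, canFam2 chr38:9372450-9372509, minus strand) read 12.58, 11.19, 11.27 and 11.03 in deleted tumors 1 to 4. The same probe read 9.59, 11.69 and 8.83 in wild type tumors 1 to 3. Deleted tumor 1 stood above its group, and wild type tumor 2 lay above 3 of the 4 deleted tumors while wild type tumors 1 and 3 lay below all 4. The range of 3.75 was wider than that of 98.9% of kept probes. The mean was 11.52 ± 0.71 (SD, n = 4) in deleted tumors against 10.03 ± 1.48 (SD, n = 3), which puts the difference at 1.49 (SE 0.71, 95% interval -0.20 to 3.18, adjusted p = 0.726, exact permutation p = 0.229). The second RGS1 probe (A_11_P205323) differed by 1.01 (SE 0.62, adjusted p = 0.801). It had its highest value in the same tumor, 9.86 in deleted tumor 1, and its lowest in the same tumor, 6.77 in wild type tumor 3.

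The RGS1 difference was not the same in both extraction sessions. In session 1 the brighter probe was lower in deleted tumors by a difference of -0.52 (3 deleted, 1 wild type), and within the shared slide by -0.45. In session 2 it was higher by 3.37 (1 deleted, 2 wild type). These values rest on single tumors and carry no test. Without wild type tumor 2 the difference was 2.31 (limma adjusted p = 0.954) and without wild type tumor 3 it was 0.88 (limma adjusted p = 0.881). The second probe ran from 0.54 without deleted tumor 1 to 1.54 without wild type tumor 2. Wild type tumors 1 and 2, whose arrays were so alike over all kept probes, were 2.1 apart at the brighter probe. Over the 15 RGS probes their median absolute difference was 0.28, within the 0.18 to 0.68 of the other pairs.

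Levels of leukocyte markers belong beside those of RGS1. Of 12 leukocyte markers with a kept probe, 7 were higher and 5 lower in deleted tumors and 0 were called, and their summed level, given as the mean log2 intensity over the list, ran from 7.36 to 8.77 in deleted and from 7.53 to 8.02 in wild type tumors. CD3D and CD3E, genes of T cells, had the smallest p of the list. CD3D, a chain of the T cell receptor complex, read between 8.39 and 9.95 in deleted and between 6.85 and 7.52 in wild type tumors (difference 2.24, SE 0.41, limma adjusted p = 0.402). CD3E, another chain of it, differed by 0.60 (adjusted p = 0.588), also with all deleted tumors above all wild type tumors, and CD2, a surface protein of T cells, by 0.35 with overlapping groups. MS4A1, a B cell gene, differed by 0.27 (limma adjusted p = 0.680), also with separate groups. It was dim, at 5.89 to 6.24 in deleted and 5.79 to 5.83 in wild type tumors. Well above background on only 3 arrays, it may have passed the filter through the deleted tumors alone, so its separation is no support. CD79A and CD79B, other B cell genes, differed by 0.12 and 0.09 with overlapping groups. In all, 3 of the 12 genes, the dim MS4A1 among them, were separate upward and 0 downward, beside 3.93% and 4.24% of all kept probes. CD68 and CSF1R, described below, differed by -0.76 and -0.63 with overlapping groups. PTPRC, carried by all leukocytes, differed by -0.16. Wild type tumor 2, high in RGS1, lay below every deleted tumor in CD3D at 7.52, above 2 of them in CD2 at 7.21 and above 3 of them in PTPRC at 10.69. The part of these cells in the RGS1 values was not tested.

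RGS2, an R4 protein that acts on Gq and is induced quickly by many stimuli, was bright. Its probe A_11_P155523 (canFam2 chr38:9200075-9200134, minus strand) read 12.08, 12.42, 12.33 and 11.00 in deleted tumors and 10.92, 12.11 and 11.33 in wild type tumors. Deleted tumor 4 lay with the low wild type tumors and wild type tumor 2 with the high deleted ones. The difference was 0.50 (SE 0.42, adjusted p = 0.877, exact permutation p = 0.400). The second RGS2 probe (A_11_P0000031926) differed by 0.53 (SE 0.31, adjusted p = 0.781), and both had their lowest value in wild type tumor 1. Without wild type tumor 1 the 2 probes differed by 0.24 and 0.31, both with a limma adjusted p of 0.9999. Without deleted tumor 4 they differed by 0.82 and 0.73, with limma adjusted p of 0.511 and 0.488, and without wild type tumor 2 by 0.83 and 0.73.

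RGS3, a larger R4 protein with several isoforms, had 3 probes along the gene. The bright one (A_11_P0000026285, canFam2 chr11:70950173-70950232, plus strand) read 9.55, 10.11, 9.30 and 9.76 in deleted tumors and 9.63, 9.30 and 10.43 in wild type tumors. The groups overlapped throughout, and the difference was -0.11 (SE 0.31, 95% interval -0.84 to 0.62). The other 2 RGS3 probes, A_11_P155878 and A_11_P139766, differed by -0.07 and -0.02. All 3 had their highest value in wild type tumor 3. The probe A_11_P139766 was well above background on 5 of 7 arrays.

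RGS4, an R4 protein known from neurons and heart, was dim and had the narrowest range of the members with 1 probe. It read 6.78, 6.63, 6.56 and 6.56 in deleted tumors (A_11_P0000031997, canFam2 chr38:22773431-22773490, minus strand). In wild type tumors 1 to 3 it read 6.72, 6.93 and 6.96. Deleted tumor 1 alone lay above wild type tumor 1, and the other deleted tumors lay below every wild type tumor. The difference was -0.24 (SE 0.11, 95% interval -0.51 to 0.03, limma adjusted p = 0.732, exact permutation p = 0.114). With the methods' t-test the RGS4 p was 0.0428, with an adjusted p of 0.705.

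RGS5, an R4 protein used as a marker of pericytes, the cells that wrap small vessels, read 7.52, 7.36, 8.66 and 7.63 in deleted tumors (A_11_P0000031998, canFam2 chr38:22725053-22725112, plus strand). In wild type tumors it read 7.49, 7.78 and 6.91. Deleted tumor 3 was the high one and wild type tumor 3 the low one, with the other 5 between 7.36 and 7.78. The difference was 0.40 (SE 0.36, adjusted p = 0.892, exact permutation p = 0.457). It was 0.11 without deleted tumor 3 and 0.15 without wild type tumor 3. Markers of vessels stood high in the same deleted tumor. The median deviation from each gene's own mean was 1.11 there over 8 endothelial markers and 0.49 over 9 pericyte and smooth muscle markers. In the other 6 tumors it lay between -0.62 and 0.14 for the endothelial list and between -0.28 and 0.07 for the pericyte list. In wild type tumor 3, the lowest for RGS5, the endothelial list was not low, at -0.03, while the pericyte list was at its lowest, -0.28. All 8 endothelial and all 9 pericyte markers had higher means in deleted tumors and 0 were called. The summed level of the endothelial markers, again a mean log2 intensity, ran from 8.98 to 10.09 in deleted and from 8.49 to 9.13 in wild type tumors, and that of the pericyte markers from 7.93 to 8.55 and from 7.65 to 7.93. The part of these cells in the RGS5 values was not tested.

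RGS18, an R4 protein of platelets, megakaryocytes and other blood cells, read 6.62, 6.69, 7.29 and 6.26 in deleted tumors and 6.64, 7.62 and 7.14 in wild type tumors (A_11_P055551, canFam2 chr38:9730147-9730206, minus strand). Wild type tumor 2 was highest and deleted tumor 4 lowest. The groups overlapped, with a difference of -0.42 (SE 0.31, adjusted p = 0.852, exact permutation p = 0.343). It was -0.17 without wild type tumor 2, -0.27 without deleted tumor 4 and -0.67 without wild type tumor 1. All 5 platelet and megakaryocyte markers with a kept probe had lower means in deleted tumors, with a median difference of -0.33 and 0 called. GP1BA among them was nearly level (difference -0.03). Their summed level, as a mean log2 intensity, ran from 6.92 to 7.46 in deleted and from 7.38 to 7.58 in wild type tumors. It was highest in wild type tumor 1, where RGS18 was low at 6.64. ITGB3 is in both this list and the osteoclast list used below. The part of these cells in the RGS18 values was not tested.

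Probes of RGS2, RGS3, RGS4, RGS5 and RGS14 aligned with each other on 1 stretch of the sequence for the RGS domain. They are printed to show how like the targets of different genes are on this array, with capitals at the bases identical in all 5. Their common overlap is 25 bases, of which 10 are identical in all.
RGS4 probe: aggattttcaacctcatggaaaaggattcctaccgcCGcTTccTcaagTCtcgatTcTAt
RGS5 probe: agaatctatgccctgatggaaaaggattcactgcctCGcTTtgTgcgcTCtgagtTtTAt
RGS14 probe: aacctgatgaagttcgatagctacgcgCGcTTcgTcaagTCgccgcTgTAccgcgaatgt
RGS3 probe: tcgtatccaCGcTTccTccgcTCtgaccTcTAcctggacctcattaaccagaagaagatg
RGS2 probe: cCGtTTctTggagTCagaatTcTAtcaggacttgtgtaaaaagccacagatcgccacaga

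The RGS4 and RGS5 probes were identical at 37 of 60 bases (61.7%), with a longest identical run of 14 bases, the longest of the 10 pairs among these 5. RGS4 and RGS14 were identical at 33 of 51 aligned bases (64.7%) with a longest run of 7. The tumor patterns of RGS4 and RGS5 were unlike all the same, since deleted tumor 3 was the highest for RGS5 and wild type tumor 3, the lowest for RGS5, was the highest for RGS4. Whether a probe also caught a related transcript was not tested. Some R4 genes also lie near each other in the genome. By the probe positions on canFam2 chromosome 38, RGS4 and RGS5 are 48.3 kb apart, and RGS1 lies 172.3 kb from RGS2 and 357.6 kb from RGS18. Of these last 3, RGS1 and RGS2 had positive differences and RGS18 a negative one, none of them called.

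RGS10, a small R12 protein abundant in macrophages and microglia and also studied in bone-resorbing osteoclasts, had the second widest range of the family. Its probe (A_11_P063781, canFam2 chr28:32674069-32674128, minus strand) read 9.10, 9.51, 11.07 and 9.56 in deleted tumors. It read 10.42, 10.24 and 11.75 in wild type tumors. Deleted tumors 1, 2 and 4 lay below every wild type tumor, and deleted tumor 3 lay above wild type tumors 1 and 2. The mean was 9.81 ± 0.86 (SD, n = 4) in deleted tumors against 10.81 ± 0.82 (SD, n = 3), which puts the difference at -0.995 (SE 0.56, 95% interval -2.32 to 0.33, adjusted p = 0.772, exact permutation p = 0.171). Its size moved with single tumors. Without wild type tumor 3 the difference was -0.52 (limma adjusted p = 0.932) and without deleted tumor 3 it was -1.42 (limma adjusted p = 0.611), the ends of the range over left-out tumors. Within the shared slide, which holds deleted tumors 2 and 3 and wild type tumor 2, it was 0.045. In session 1 it was -0.20 and in session 2 it was -1.98. With age as a covariate it was -1.998 (limma adjusted p = 0.816).

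The genes most like RGS10 were sought over the whole array. Likeness was measured as the root mean square difference between 2 genes' deviations from their own means over the 7 tumors, for 11323 genes. The most alike were CD68, a lysosomal protein of macrophages and osteoclasts, at 0.20, PSTPIP1, an adaptor of blood cells, at 0.21, and CSF1R, the receptor for macrophage colony stimulating factor, at 0.27, where the median over all genes compared was 0.92. CD68 read 9.75, 10.55, 11.62 and 10.49 in deleted and 10.89, 10.80 and 12.40 in wild type tumors. CD68 was thus high in deleted tumor 3 and wild type tumor 3, as RGS10 was. ITGAM, an integrin of myeloid cells on the leukocyte list, was highest in deleted tumor 3, at 9.49. In wild type tumor 3 it was not high, at 7.17, beside 9.16 in wild type tumor 2. Of 7 osteoclast markers with a kept probe, CALCR was level (difference -0.0004) and the others had lower means in deleted tumors. Of the 7 markers 0 were called, and their median difference was -1.35. Their summed level, as a mean log2 intensity, ran from 8.74 to 10.31 in deleted and from 9.20 to 11.95 in wild type tumors, highest in wild type tumor 3 and, within the deleted group, in deleted tumor 3. CTSK, the osteoclast protease cathepsin K, differed by -1.35 (SE 0.71, adjusted p = 0.755). The part of these cells in the RGS10 values was not tested.

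**Figure D4:**
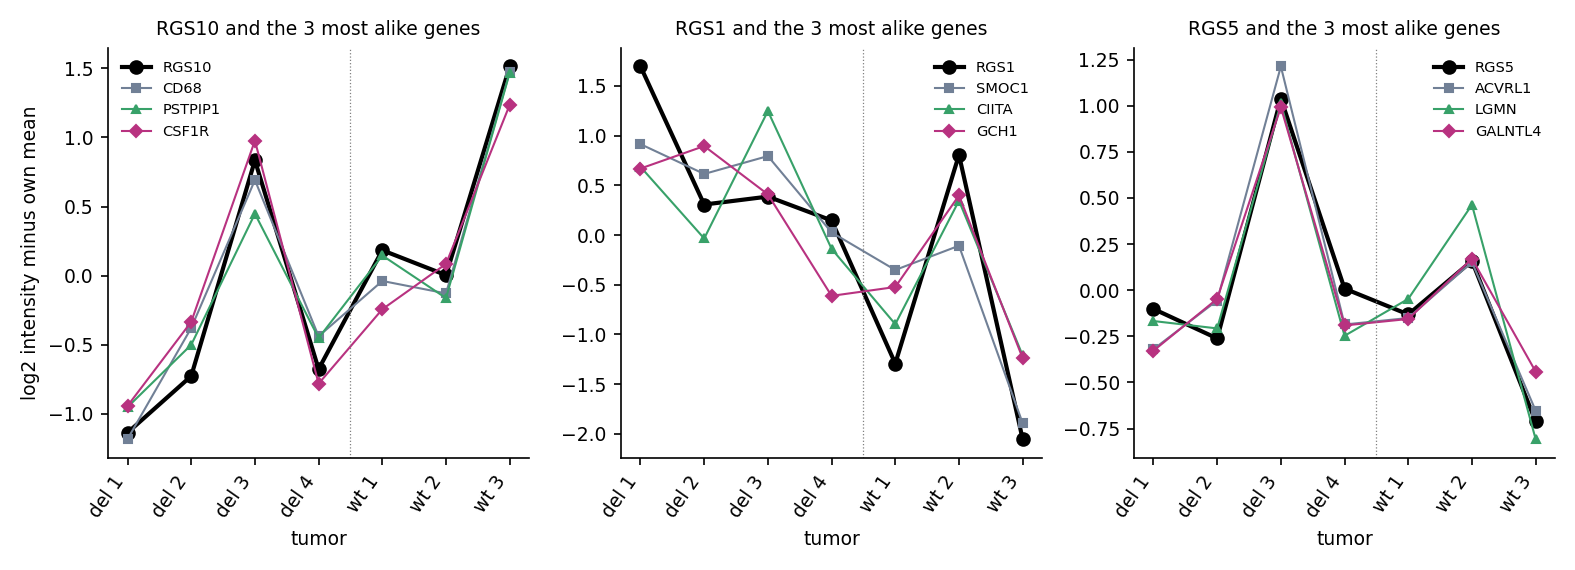
Log2 intensity less the gene's own mean over the 7 tumors (vertical axis) by tumor (horizontal axis) for RGS10, RGS1 and RGS5 in black and the 3 genes most alike to each in color. RGS10, CD68, PSTPIP1 and CSF1R all peak in deleted tumor 3 and wild type tumor 3. RGS5 and its 3 genes peak in deleted tumor 3, and the RGS1 genes follow less closely.

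The genes most like RGS5 were ACVRL1, an endothelial receptor of the transforming growth factor beta family, at 0.15, LGMN, a lysosomal protease, at 0.16, and GALNTL4 at 0.18, with a median of 0.57 over all genes. All 3 had their highest value in deleted tumor 3. RGS1 was less closely matched. Its nearest genes were SMOC1, a matrix protein, at 0.61, CIITA, the activator of MHC class II genes, at 0.66, and GCH1, an enzyme of biopterin synthesis, at 0.70, with a median of 1.21. These are the 3 members with the widest ranges, and likeness over 7 tumors says nothing of shared control.

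RGS14, a large R12 protein that also binds inactive alpha subunits and Ras family proteins, had 3 probes. The brightest (A_11_P170343, canFam2 chr4:39176115-39176173, minus strand) read 8.01, 8.41, 9.20 and 7.56 in deleted tumors and 8.73, 9.01 and 7.88 in wild type tumors. Deleted tumor 3 was highest and deleted tumor 4 lowest, so the deleted group spanned the wild type group. The difference was -0.24 (SE 0.44, adjusted p = 0.946). The probes A_11_P104631 and A_11_P213763 differed by -0.12 and 0.05, and all 3 had their lowest value in deleted tumor 4. The probe A_11_P213763 was well above background on 6 of 7 arrays, and its wild type values lay between 6.20 and 6.24 against 6.04 to 6.52 in deleted tumors.

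**Figure D5:**
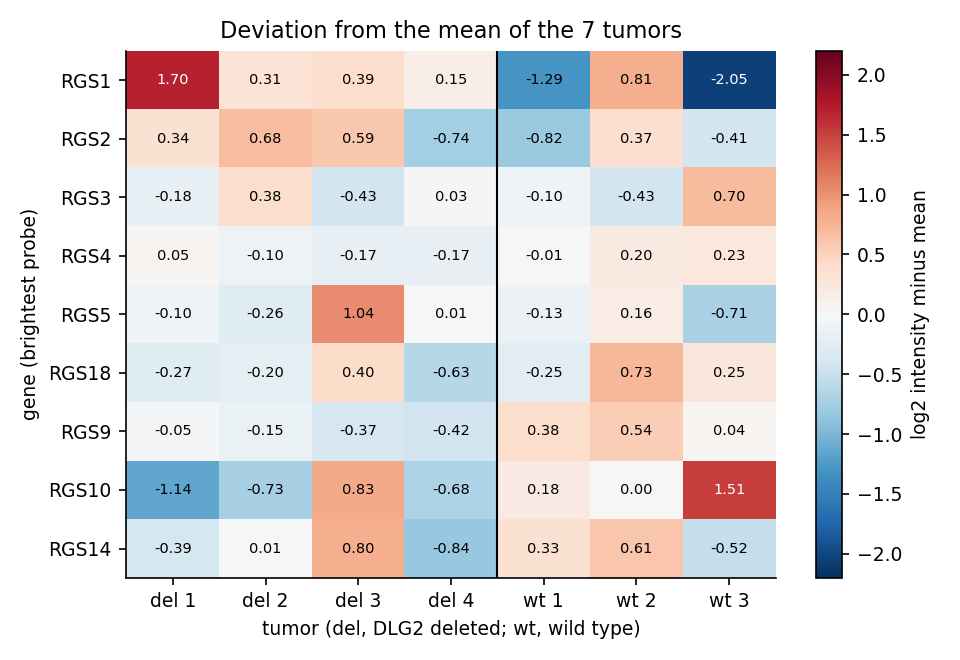
Deviation of each RGS gene, by its brightest probe (vertical axis), from its mean over the 7 tumors (horizontal axis), in log2 intensity, with red above and blue below the mean. Single tumors stand out more than the groups. Deleted tumor 3 is high in RGS5 (1.04), RGS10 (0.83) and RGS14 (0.80), and wild type tumor 3 is high in RGS10 (1.51) and low in RGS1 (-2.05).

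By tumor, the genes in which deleted tumor 4 lay furthest below the mean were RGS14 (-0.84), RGS2 (-0.74), RGS10 (-0.68) and RGS18 (-0.63). Other tumors were lower still in RGS2 and RGS10. Deleted tumor 4 was the lowest of the 7 in RGS14, RGS18 and RGS9 (-0.42), and slightly above the mean in RGS1 (0.15), RGS3 (0.03) and RGS5 (0.01). It also stood apart in fat cell markers, with a median deviation of 3.49 over 5 genes against -0.69 to -0.31 in the other 6 tumors, and ADIPOQ, a hormone of fat cells, at 13.36. Cartilage markers were high in deleted tumors 2 and 3, with median deviations of 1.76 and 0.83 over 8 genes against -0.80 to 0.13 in the other 5. The part of these tissues in the RGS values was not tested. Deleted tumor 3 was above the mean in 6 of the 9 genes and below it in RGS3, RGS4 and RGS9. No tumor was above or below the mean in all 9 genes.

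The remaining parts of the pathway were read from lists of genes with known roles, 1 probe per gene, and 0 genes were called in any list. Among the alpha subunits that RGS proteins act on, 10 of 16 had a kept probe, with 6 higher and 4 lower. GNAQ, which couples receptors to phospholipase C, read 7.19, 7.21, 7.32 and 7.53 in deleted and 6.88, 7.04 and 7.09 in wild type tumors (difference 0.31, SE 0.13, limma adjusted p = 0.677). GNAS, which couples receptors to adenylyl cyclase, read 14.91, 14.55, 14.52 and 14.93 in deleted and 15.26, 15.01 and 15.04 in wild type tumors (difference -0.37, SE 0.15, limma adjusted p = 0.677). All deleted tumors were above all wild type tumors for GNAQ and below them for GNAS. That is 1 of 10 genes in each direction, beside 3.93% upward and 4.24% downward of all kept probes, and both were named for their small p.

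Of the beta and gamma subunits, 13 of 17 genes had a kept probe, with 8 higher and 5 lower and 0 at an unadjusted p below 0.05. The smallest p were those of GNB3 (difference -0.79, SE 0.34, adjusted p = 0.691) and GNB5, given above. Of other proteins with an RGS domain, 20 of 29 had a kept probe, with 9 higher and 11 lower. SNX25, a sorting nexin with an RGS domain, was higher with separate groups, at 8.58 ± 0.35 (SD, n = 4) against 7.89 ± 0.11 (SD, n = 3), or a difference of 0.70 (SE 0.20, adjusted p = 0.559). SNX14, its relative, was lower with separate groups (difference -0.22, SE 0.11, adjusted p = 0.739). ARHGEF12 was the other gene with all deleted tumors higher (difference 0.79, SE 0.45, adjusted p = 0.778), so 2 of 20 genes were separate upward and 1 downward, beside the 3.93% and 4.24% of all kept probes.

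Of the 12 partners and other modulators 10 had a kept probe, 3 higher and 7 lower, with GPR179 (above) and PCP2, a modulator of inhibitory alpha subunits, at the smallest p (difference 0.10, SE 0.10, adjusted p = 0.900). Of the 20 effectors 12 had a kept probe, 5 higher and 7 lower, with PLCB4, a phospholipase C, at -0.34 (SE 0.18, adjusted p = 0.764) and ADCY6, an adenylyl cyclase, at -0.29 (SE 0.16, adjusted p = 0.765). Median differences of these 5 lists lay between -0.05 and 0.06.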

How the data were processed

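Total RNA of 7 tumors was labelled with Cy3 and hybridized by the authors to Agilent arrays of 45220 spots, 43803 of them no controls. The deposited files hold spot and local background intensity on a linear scale and a processed intensity, per the file headers and the submitters' processing notes from Feature Extraction 10.7.3.1. They also hold flags for background and outliers. The study's methods name RMA across arrays with a correction for batch, not applied here. Groups came from the genotype label, and tumor numbers only name tumors.

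Here mean intensity was corrected by normexp (saddle, offset 50) with the median local background in limma 3.58.1 (R 4.3.3), put on the log2 scale and quantile normalized. In deleted tumor 1, 4 spots had a local background above 1000 units, and with them the fitted background mean was -658.25 units. Spots marked for background were therefore left out of the fit and given the array's median background, a choice made after seeing the data. With that, the fitted mean was -4.65 units. Control spots and 144 outlier-marked values were left out, and replicate spots averaged. Groups were compared with lmFit and eBayes (two-sided, no covariates), and 15 single probes with exact permutation (scipy 1.17.1). The number of arrays limits the precision. Gene names were those of the files, and a RefSeq table (assembly UU_Cfam_GSD_1.0) named 2054 further probes, none of them RGS members. Pathway and marker lists took 1 probe per gene, that with the highest mean. The genes named were all member probes, the 2 genes of smallest p in each pathway list and the 3 genes most alike to each of the 3 members of widest range, beside the R7 partners and some markers chosen with their values seen. The members and lists were chosen with earlier results of these data known. Alternatives were other background corrections, scalings, filters, tests, array weights, blocks, covariates and left-out tumors. The computations were tested on simulated data.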

Additional observations from a re-analysis of the deposited data

Results flagged for a closer look

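RGS1 stood out in 1 tumor. At its brighter probe (A_11_P0000014488) deleted tumor 1 read 12.58 where the other 3 deleted tumors lay between 11.03 and 11.27, and the gap to its nearest neighbor was 0.845 of the range of the group. That passes Dixon's 95% limit for 4 values. Such groups of 4 were checked for all 15 RGS probes, and about 1 in 20 passes by chance. The second RGS1 probe was also highest in that tumor, at 9.86. Without deleted tumor 1 the RGS1 difference was 1.13 (limma adjusted p = 0.780).

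Whether the DLG2 difference depends on the sex label was tested as an interaction in 32231 probes. Of these 0 passed an adjusted p below 0.1 by limma and 2554 had an unadjusted p below 0.05. Among the RGS probes 0 passed and 1 had an unadjusted p below 0.05, with a smallest adjusted p of 0.441. Only 1 wild type tumor was labelled MC.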

How the results depend on the processing

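Across 24 alternatives 0 RGS probes were called. Of 357 values of single probes under them, 336 kept their sign and 21 reversed, at 8 of the 15 probes. RGS9 did not reverse in the 23 alternatives that tested it. Alternatives that changed only the filter, the test, limma's variance settings or the threshold left each difference as reported, so no sign could reverse there. Their values are counted among the 336 and, for RGS9, among the 23. RGS2, RGS4, RGS5, RGS18 and the RGS14 probe A_11_P104631 did not reverse in any. The count at an unadjusted p below 0.05 was 1 as reported, for RGS9, and 1 with age as a covariate, but there for RGS10 and not RGS9. It was 0 under normexp with 75th percentile scaling and under a filter of all 7 arrays, which removes RGS9, and 2 without a filter, with the methods' t-test (RGS4 and RGS9, both with adjusted p above 0.6) and with wild type tumors 1 and 2 averaged. With each tumor left out it was 1 to 3. The median difference of -0.07 was 0.052 under normexp with 75th percentile scaling, which moved the median of all kept probes to 0.11, so it was below that median there too. It was 0.039 with array weights and 0.035 with the slide as a block, and -0.077 to 0.047 with each tumor left out. The causes were not tested.

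With the slide as a block, a fit left with 1 residual degree of freedom, the RGS1 probes were at -0.45 and -0.50, RGS10 at 0.045 and the RGS3 probes at 0.41, 0.14 and 0.035. The other reversals were small. The dim RGS3 probe A_11_P139766 was at 0.17 with the processed signal after quantile normalization, at 0.21 under normexp with 75th percentile scaling, where A_11_P155878 was at 0.052, and at 0.064 with array weights, where A_11_P0000026285 was at 0.039. The last was at 0.001 with session as a term. The RGS14 probe A_11_P213763 was at -0.17 with the processed signal after 75th percentile scaling and at -0.012 with age as a covariate. With each tumor left out the RGS3 probes ran from -0.35 to 0.22, from -0.17 to 0.02 and from -0.089 to 0.062, and the RGS14 probes A_11_P170343 and A_11_P213763 from -0.57 to 0.001 and from -0.039 to 0.12.

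With normexp fitted on all spots, an alternative added after seeing the data, RGS9 was at -0.49 (adjusted p = 0.552). No paired analysis was possible because tumor numbers were given in accession order and name different dogs. For RGS9, signal close to background limits the size of the difference.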
